A study of Homo sapiens with 16 samples.

Results

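The enzymes described here make prostaglandin H2, turn it into prostaglandin E2 or prostacyclin, and break prostaglandins down. They are the 9 genes PTGS1, PTGS2, PTGES, PTGES2, PTGES3, PTGIS, HPGD, PTGR1 and PTGR2, picked by symbol from a table of 58735 gene IDs, each matching 1 ID. RNA was sequenced from 2 human testicular germ cell tumour (TGCT) lines: NTERA-2, in its NT2/D1 form, an embryonal carcinoma (EC) line, and TCam-2, a seminoma (SEM) line. Each line received a synthetic copy (mimic) of the microRNA MIR9-2-5p or a scrambled mimic and was collected after 3 days. Each of the 4 groups has 4 biological replicates, which makes 16 libraries in all. All groups, the scrambled ones included, went through the same transfection. NT2/D1 cells grew in DMEM and TCam-2 cells in RPMI medium, so line and medium cannot be told apart. Each tumour type is represented by 1 cell line.

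Prostaglandins are signalling lipids made from arachidonic acid, which phospholipases free from membranes. The cyclooxygenases PTGS1 and PTGS2 convert it to prostaglandin H2, and terminal synthases such as PTGES and PTGIS shape the final product, which acts on receptors of neighbouring cells. HPGD inactivates prostaglandins by oxidation and PTGR1 and PTGR2 then reduce the keto products. PTGS2 and PTGES are known as enzymes induced together in inflammation and in many tumours.

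The mimic copies hsa-miR-9-5p, which is 23 bases long and has the same mature sequence at 3 loci (RefSeq, GRCh38.p14). The MIR9-2 copy lies at chr5:88666902-88666924 on the minus strand. The mature sequence is shown because its seed, bases 2 to 8 in capitals, is what the sites below were searched with.
hsa-miR-9-5p: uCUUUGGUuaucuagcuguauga

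The 3′ UTR of each enzyme's MANE Select transcript was searched on its own strand for the seed matches ACCAAAGA (8mer), ACCAAAG (7mer-m8), CCAAAGA (7mer-A1) and CCAAAG (6mer), a site being counted once under its longest form. No 8mer was found in any of the 9 genes, and 3 of them held a 7mer. The 7mer windows are printed for these 3 genes and a 6mer window for PTGES, on the transcript's strand with the matching bases in capitals.
HPGD, 7mer-m8, chr4:174491743-174491771, minus strand: atgtgatgtggACCAAAGgctaggttgta
PTGIS, 7mer-m8, chr20:49507405-49507433, minus strand: aactagctaaaACCAAAGgagtcccttag
PTGS2, 7mer-A1, chr1:186672438-186672466, minus strand: atgtaaacaatCCAAAGAaatgattgtat
PTGES, 6mer, chr9:129738562-129738589, minus strand: tttgagtccctCCAAAGggcagtgggtg

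PTGIS also held 6mers in its 3′ UTR of 4046 bases. No match was found in PTGS1, PTGES2, PTGES3, PTGR1 or PTGR2. Among 18780 genes with an annotated 3′ UTR, 4.27% held an 8mer, 9.58% a 7mer-m8, 11.9% a 7mer-A1 and 21.6% any of these, while 40.5% held a 6mer or longer match. The median 3′ UTR was 1088 bases long, against 1781 for HPGD, 2562 for PTGS2 and 1262 for PTGES. A match is a description of the letters and not a shown binding site.

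The libraries held 14167738 to 22427162 counts, and each correlated with its own group at a mean of 0.985 to 0.990, so none stood apart by this measure. Mitochondrial genes took 3.63% to 4.01% of the counts in scrambled TCam-2 and 1.85% to 2.18% with the mimic, and 4.72% to 5.46% and 4.16% to 4.53% in NT2/D1, without overlap in either line. The part of this shift in the results was not tested. Embryonal carcinoma markers summed to 3840 to 4080 counts per 1000000 (CPM) in scrambled NT2/D1 and 1050 to 1090 CPM with the mimic. All 6 fell, beside 29.1% of all tested genes. In TCam-2 these markers summed to 790 to 888 CPM without and 555 to 621 CPM with the mimic. There 3 of 6 fell, beside 32.7% of all tested genes. Seminoma markers summed to 1550 to 1600 CPM in scrambled TCam-2 and 2110 to 2220 CPM with the mimic. Of these 7 genes 4 were higher and 2 lower, beside 33.7% and 32.7% of all tested genes. In scrambled NT2/D1 the 7 seminoma genes summed to 138 to 155 CPM. There PDPN was at 91, TFAP2C at 33.4, KIT at 19.9 and PRDM1 at 2.87 CPM. NANOS3 was at 0.153 CPM there, and PRAME and SOX17 were at or near 0 in both NT2/D1 groups. Fibroblast markers summed to 431 to 456 CPM in scrambled TCam-2 and 198 to 216 CPM with the mimic. Of 6 tested there 5 fell, beside 32.7% of all tested genes. In NT2/D1 the fibroblast markers summed to 534 to 621 CPM without and 619 to 698 CPM with the mimic. Blood cell markers summed to at most 0.871 CPM in any library. The mature microRNA itself was not measured in these libraries, so the transfection was not checked from them. The study reports its level after mimic treatment in a supplementary figure.

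In the scrambled controls the tested enzymes that differed most between the 2 lines were HPGD, PTGS1 and PTGIS. All 8 genes that could be tested differed between the lines, 3 higher in TCam-2 and 5 lower, where 79.2% of all 17740 tested genes differed, 39.4% being higher in TCam-2 and 39.8% lower. So many genes differ between the lines that this count does not set the enzymes apart, and HPGD and PTGS1 met the filter on low counts in all 4 libraries of their high group only.

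HPGD, the dehydrogenase that begins prostaglandin inactivation, showed the widest gap. It was at 157, 151, 153 and 158 CPM in the TCam-2 scrambled libraries and at 0.461, 0.758, 0.841 and 0.214 CPM in those of NT2/D1, where 4 to 18 counts lie behind each value. The groups do not overlap, and the log2 difference was 8.20 (SE 0.15, edgeR adjusted p = 9.57e-18), a 295-fold higher level in TCam-2.

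PTGIS, the prostacyclin synthase, went the other way. Its values were 52.2, 42.6, 48.3 and 49.1 CPM in NT2/D1 and 2.03, 0.977, 0.846 and 0.633 CPM in TCam-2, with a log2 difference of -5.27 (SE 0.18, edgeR adjusted p = 2.91e-14). Every NT2/D1 library was far above every TCam-2 library.

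The cyclooxygenases were low in both lines and close to undetected in TCam-2. PTGS1, the constitutive form, had 83, 57, 70 and 60 counts in the NT2/D1 scrambled libraries, against 0, 0, 4 and 1 in TCam-2. A count of 0 allows up to 0.169 and 0.14 CPM in the first and second of these TCam-2 libraries (3 counts, counting error only). The log2 difference was -5.50 (SE 0.48, edgeR adjusted p = 8.94e-09), but it rests on few TCam-2 counts, and it was -7.08 without TCam-2 scrambled replicate 3, which holds 4 of them. PTGS2, the inducible form, had 9, 17, 12 and 12 counts in NT2/D1 and 1, 2, 1 and 0 in TCam-2. The PTGS2 groups do not overlap, although the gene was too low to be tested between lines.

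PTGES, the inducible microsomal prostaglandin E synthase, was higher in TCam-2, at 8.28, 11.2, 10.3 and 10.8 CPM against 3.05, 1.96, 2.1 and 2.73 CPM in NT2/D1. Its log2 difference was 2.18 (SE 0.17, edgeR adjusted p = 2.72e-09) with no overlap. The other 4 enzymes differed less between the scrambled lines. PTGR2 was lower in TCam-2 by 0.95 on the log2 scale, as a difference of -0.95 (SE 0.20, edgeR adjusted p = 0.000259). The same difference was -0.38 for PTGES2, 0.22 for PTGES3 and -0.21 for PTGR1 (edgeR adjusted p = 0.00372, 0.00534 and 0.0205). The PTGES3 groups overlap, and the PTGR1 call is lost without TCam-2 scrambled replicate 3 or 4 (adjusted p = 0.0803 and 0.111).

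Levels of different genes were set beside each other as counts per kilobase of annotated exon per 1000000 counts. PTGES3, a prostaglandin E synthase better known as the HSP90 co-chaperone p23, was at the top in all 4 groups, at 140 ± 13.4 to 179 ± 2.65 (mean ± SD, n = 4). In scrambled NT2/D1 it was followed by PTGR1 at 13.6 ± 0.615 and PTGES2 at 13.4 ± 2.34, whose ranges overlap, and then by PTGIS at 8.63 ± 0.717. In scrambled TCam-2 the second place went to HPGD at 28 ± 0.637, before PTGR1 at 10.7 ± 0.887 and PTGES2 at 9.29 ± 0.285.

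Below these came PTGES, at 1.3 ± 0.274 in scrambled NT2/D1 and 5.35 ± 0.677 in scrambled TCam-2. At the bottom of the NT2/D1 order, PTGR2 (0.776) and PTGS1 (0.643) overlap, as do PTGS2 (0.127) and HPGD (0.103). At the bottom of the TCam-2 order stood PTGIS at 0.201 ± 0.111, PTGS1 at 0.0119 and PTGS2 at 0.00922, and the ranges of both cyclooxygenases overlap. With MIR9-2-5p, HPGD (10.4 ± 0.956) and PTGES2 (10.1 ± 2.02) overlap in TCam-2, where PTGES came after PTGR2. Per kilobase of the longest transcript, the order of PTGES2 and PTGR1 turned in scrambled NT2/D1 (23.4 ± 4.1 and 22.3 ± 1.01), and so did that of HPGD and PTGS2.

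**Figure D1:**
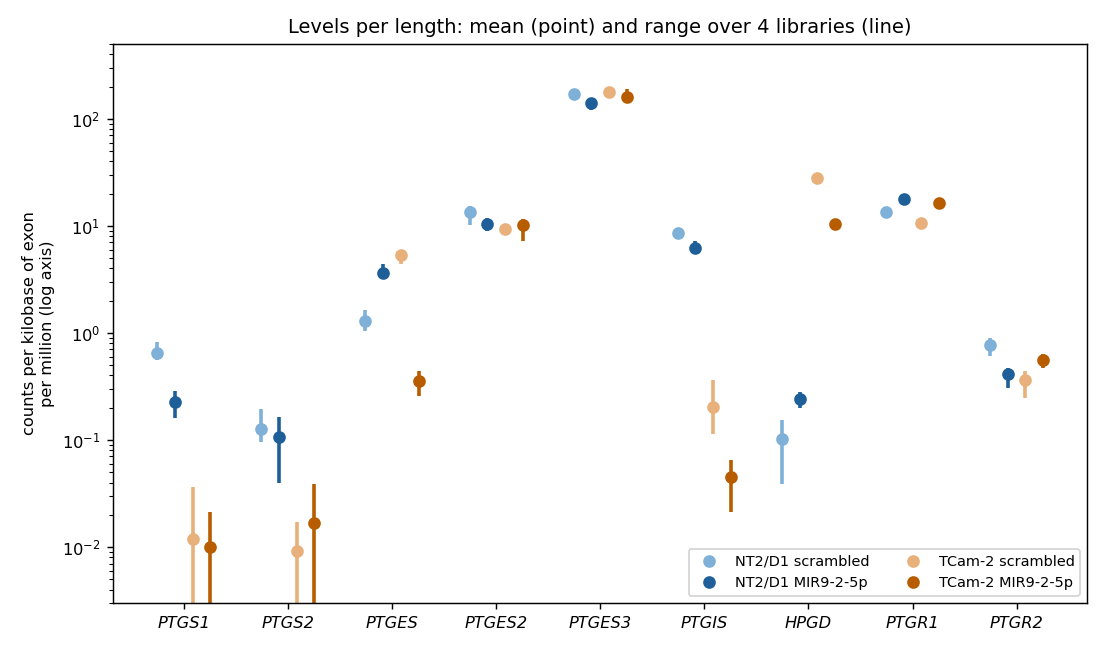
Mean level of each enzyme in counts per kilobase of annotated exon per 1000000 counts (log axis) in the 4 groups, with lines from the lowest to the highest of 4 libraries; lines that reach the axis run to 0. PTGES3 sits at 140 to 179 in every group, HPGD reaches 28 only in scrambled TCam-2 and the cyclooxygenases PTGS1 and PTGS2 sit lowest in TCam-2.

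MIR9-2-5p changed most of these enzymes in both lines, but not in the same way. In NT2/D1 3 of 9 rose and 5 fell, PTGS2 not passing the test, and 7 of 9 did not overlap between the groups. Among all 17586 tested genes 59.3% changed, 30.2% up and 29.1% down, and 52% did not overlap. In TCam-2 2 of the 7 tested enzymes rose and 4 fell, PTGES2 not passing, and 5 did not overlap. There 66.3% of 16847 genes changed, 33.7% up and 32.7% down, and 59.5% did not overlap. The shares of changed enzymes are thus to be read against backgrounds in which most genes moved. The median log2 change of the tested enzymes was -0.28 in NT2/D1 and -0.29 in TCam-2, against -0.016 and 0.024 over all tested genes.

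The difference of response between the lines passed the test for 4 of 9 enzymes, PTGES, HPGD and PTGIS in 1 direction and PTGR2 in the other, where 53.2% of 19576 genes passed, 27.9% being higher and 25.3% lower in NT2/D1 relative to TCam-2. HPGD in NT2/D1 and PTGES and PTGIS in TCam-2 met the filter on low counts in all 4 libraries of 1 group only, that in which they were higher, so the counts of changed enzymes are a description. The scrambled libraries are shared by the comparison between lines and those with the mimic. The part of the marker changes given above in these responses was not tested. In cultures measured in bulk, fewer cells that express a gene and less RNA per cell cannot be told apart.

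**Figure D2:**
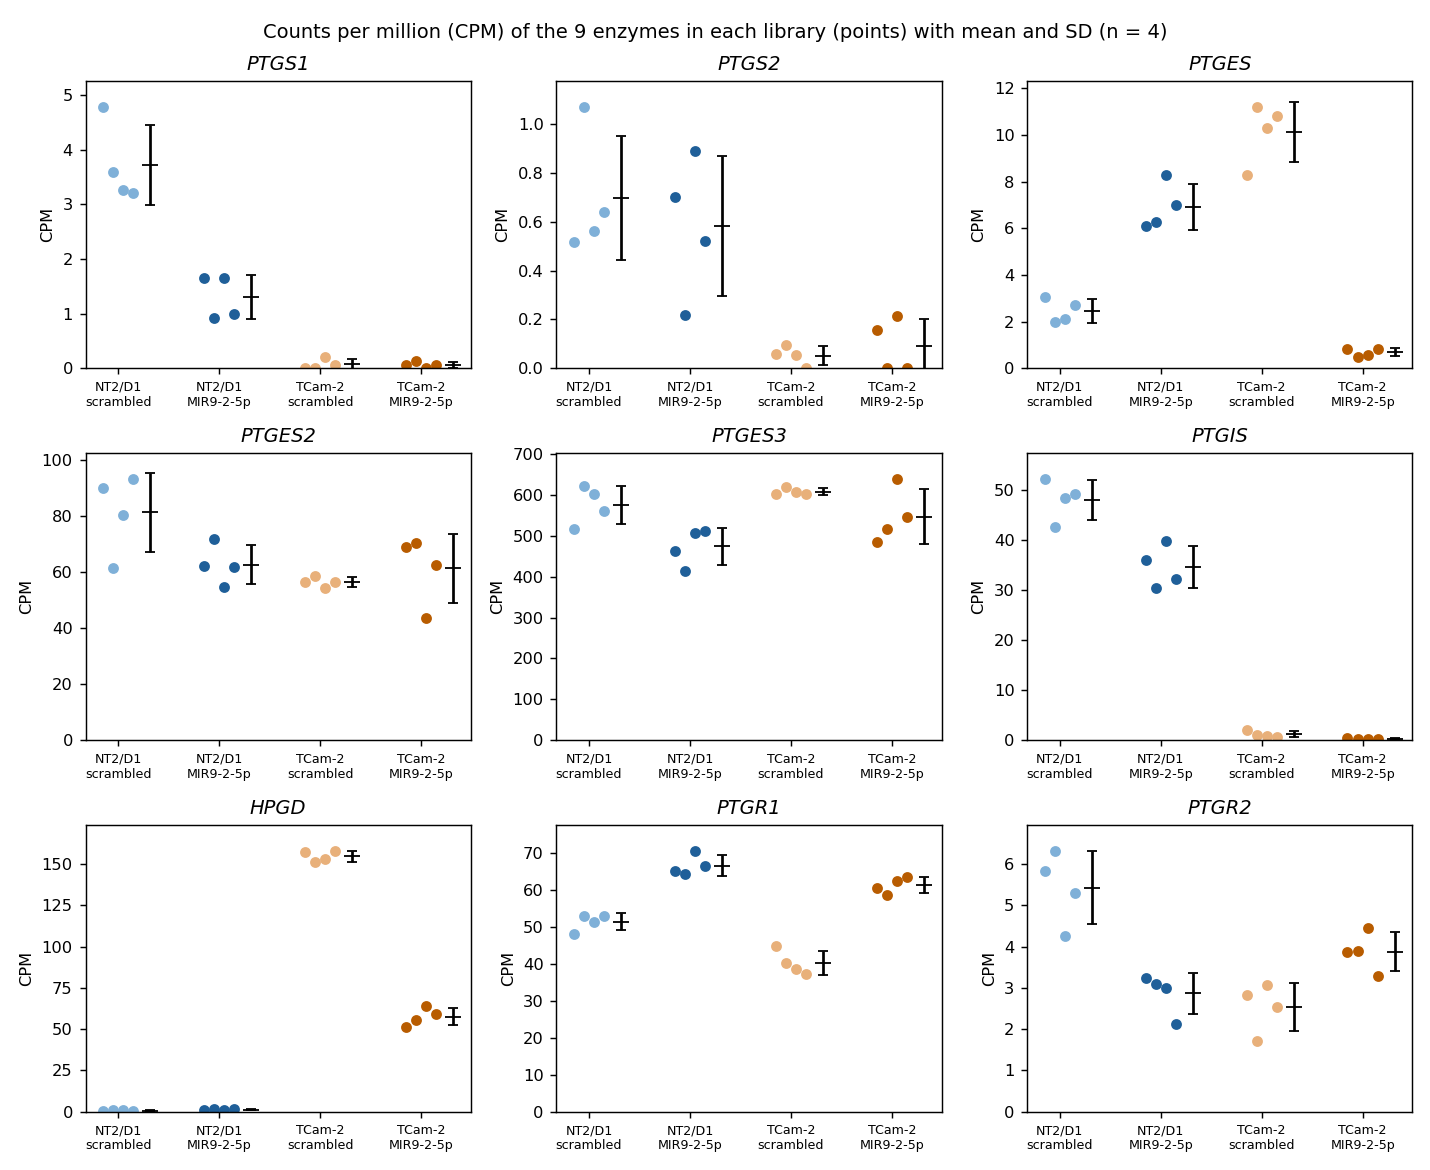
CPM of each enzyme in each of the 16 libraries (points, replicates 1 to 4 from left to right), with the mean and SD of 4 libraries beside them on a linear axis from 0, where SD bars are cut. PTGES rose from 2.46 to 6.91 CPM in NT2/D1 and fell from 10.1 to 0.675 CPM in TCam-2, and HPGD fell from 155 to 57.6 CPM in TCam-2.

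PTGES moved in opposite directions. In NT2/D1 it was at 6.11, 6.26, 8.29 and 6.99 CPM with MIR9-2-5p against 3.05, 1.96, 2.1 and 2.73 CPM with the scrambled mimic. Every mimic library lay above every scrambled library, and the gene rose (log2 fold change 1.49, SE 0.18, edgeR adjusted p = 1.79e-06). In TCam-2 it was at 0.826, 0.487, 0.565 and 0.822 CPM with MIR9-2-5p, from 8 to 16 counts, against 8.28, 11.2, 10.3 and 10.8 CPM with the scrambled mimic.

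This was the largest fall among the enzymes tested, 16.1-fold (log2 fold change -4.01, SE 0.20, edgeR adjusted p = 1.58e-11). The response differed between lines by 5.52 on the log2 scale (SE 0.28, edgeR adjusted p = 2.65e-14). A bar plot of the study, made from these same libraries, shows PTGES beside the arachidonic acid gene set for TCam-2, so its direction there is not independent evidence.

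HPGD also moved in opposite directions. In TCam-2, where it is abundant, it was at 51.3, 55.8, 63.8 and 59.3 CPM with MIR9-2-5p and 157, 151, 153 and 158 CPM without. The groups lie far apart, and the log2 fold change was -1.56 (SE 0.07, edgeR adjusted p = 4.62e-12). In NT2/D1, where it is scarce, the counts were 22, 26, 29 and 33 with MIR9-2-5p and 8, 12, 18 and 4 without.

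Those NT2/D1 counts do not overlap, and HPGD rose there by 1.23 on the log2 scale (SE 0.36, edgeR adjusted p = 0.00763), between 0.96 and 1.51 with 1 library left out. Even so its NT2/D1 level with the mimic, 1.34 ± 0.194 CPM, stayed far below the 57.6 ± 5.29 CPM of TCam-2 with the mimic (SD, n = 4). The difference of response was 2.80 (SE 0.26, edgeR adjusted p = 1.89e-09). HPGD carries the 7mer-m8 window printed above.

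PTGIS fell in both lines. In NT2/D1 it was at 35.9, 30.4, 39.8 and 32.2 CPM with MIR9-2-5p against 52.2, 42.6, 48.3 and 49.1 CPM, with no overlap (log2 fold change -0.47, SE 0.10, edgeR adjusted p = 0.000406). In TCam-2 the counts were 7, 4, 4 and 2 with MIR9-2-5p against 36, 21, 16 and 10, again with no overlap. That fall was larger on the log2 scale, at -2.25 (SE 0.46, edgeR adjusted p = 0.000337), although on counts this small its range with 1 library left out was -2.5 to -1.85.

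The 2 responses of PTGIS differed by 1.79 on the log2 scale (SE 0.41, edgeR adjusted p = 0.000713). PTGIS and HPGD are the enzymes with a 7mer-m8 match. Both fell in TCam-2, while in NT2/D1 PTGIS fell and HPGD rose. PTGIS in TCam-2 and HPGD in NT2/D1 met the filter on low counts only through the group in which they were higher. The part of the matches in these responses was not tested.

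PTGS1 fell in NT2/D1, with 33, 17, 37 and 21 counts (0.925 to 1.65 CPM) with MIR9-2-5p against 83, 57, 70 and 60 (3.21 to 4.78 CPM). No libraries overlap, and the log2 fold change was -1.49 (SE 0.24, edgeR adjusted p = 4.4e-05). It has no seed match in the 3′ UTR searched. In TCam-2 the counts were 1, 2, 0 and 1 with the mimic and 0, 0, 4 and 1 without, too few to be tested.

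PTGS2 had 14, 4, 20 and 11 counts in NT2/D1 with MIR9-2-5p and 9, 17, 12 and 12 without. The groups overlap and its log2 fold change of -0.22 did not pass (SE 0.42, edgeR adjusted p = 0.677). In TCam-2 PTGS2 had 3, 0, 3 and 0 counts with the mimic and 1, 2, 1 and 0 without, and the zeros allow 0.176 to 0.19 CPM. The differences of response, -1.19 for PTGS1 and -0.75 for PTGS2, did not pass (edgeR adjusted p = 0.416 and 0.602). They rest on TCam-2 counts of 0 to 4, and with 1 library left out they ran from -2.8 to -0.66 for PTGS1 and from -1.23 to -0.14 for PTGS2.

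The remaining prostaglandin E synthases changed little. PTGES3 was at 464, 415, 508 and 512 CPM with MIR9-2-5p and 518, 623, 603 and 562 CPM without in NT2/D1. Its log2 fold change was -0.28 in NT2/D1 (SE 0.08, edgeR adjusted p = 0.00473) and -0.29 in TCam-2 (SE 0.07, edgeR adjusted p = 0.00197). In TCam-2 it was at 486, 518, 640 and 547 CPM with the mimic and 602, 621, 609 and 603 CPM without.

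The TCam-2 groups of PTGES3 overlap through mimic replicate 3, which is above all scrambled libraries. The difference of the PTGES3 responses was 0.03 and did not pass (SE 0.11, edgeR adjusted p = 0.85). PTGES2, a membrane-associated enzyme whose part in prostaglandin E2 synthesis in living mice is debated, fell in NT2/D1, from 81.3 ± 14.2 to 62.6 ± 6.95 CPM (SD, n = 4), with overlapping groups (log2 fold change -0.38, SE 0.12, edgeR adjusted p = 0.0114).

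In TCam-2 PTGES2 was at 69, 70.5, 43.7 and 62.4 CPM with MIR9-2-5p and 54.3 to 58.6 CPM without. Mimic replicate 3 is the lowest of these libraries and the other 3 are the highest. The log2 fold change, fitted with scaling factors that CPM do not carry, was -0.01 (SE 0.12, edgeR adjusted p = 0.923). At its highest it was 0.12 with 1 library left out. The PTGES2 responses differed by -0.35, which did not pass (SE 0.19, edgeR adjusted p = 0.143) but passed at -0.48 without TCam-2 mimic replicate 3 (adjusted p = 0.0105) and at -0.46 without NT2/D1 scrambled replicate 2 (adjusted p = 0.0258).

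The reductases of the breakdown route differed from each other. PTGR1, which also inactivates leukotriene B4, rose in both lines. It was at 65, 64.2, 70.6 and 66.6 CPM with MIR9-2-5p and 48.1, 53, 51.4 and 53 CPM without in NT2/D1 (log2 fold change 0.38, SE 0.07, edgeR adjusted p = 0.000264). In TCam-2 it was at 60.6, 58.6, 62.5 and 63.6 CPM against 44.9, 40.2, 38.6 and 37.3 CPM (log2 fold change 0.47, SE 0.07, edgeR adjusted p = 1.91e-05).

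Neither pair of PTGR1 groups overlaps, and the difference of the responses, -0.08, did not pass (SE 0.10, edgeR adjusted p = 0.523). PTGR2, which reduces the keto form of prostaglandin E2, fell in NT2/D1, from 5.82, 6.32, 4.25 and 5.3 CPM to 3.25, 3.1, 2.99 and 2.13 CPM. The groups do not overlap (log2 fold change -0.91, SE 0.18, edgeR adjusted p = 0.000361).

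In TCam-2 PTGR2 was higher, at 3.87, 3.89, 4.45 and 3.29 CPM with MIR9-2-5p against 2.82, 1.72, 3.07 and 2.53 CPM. The lowest mimic library was just above the highest scrambled library. The log2 fold change was 0.48 (SE 0.20, edgeR adjusted p = 0.0384), and the call is lost with DESeq2 (adjusted p = 0.0549) and without TCam-2 mimic replicate 1, 2 or 3 or scrambled replicate 2 or 4 (adjusted p = 0.0627, 0.0687, 0.0843, 0.159 and 0.0763). The difference of the PTGR2 responses was -1.38 (SE 0.27, edgeR adjusted p = 0.000118).

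**Figure D3:**
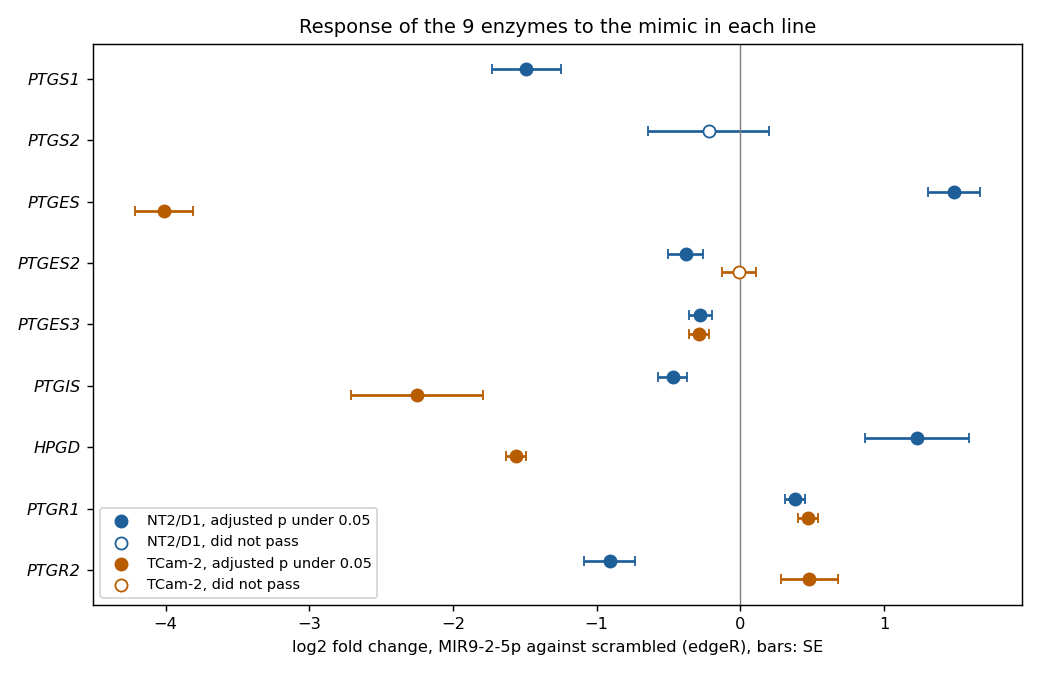
Log2 fold change with MIR9-2-5p against the scrambled mimic for each enzyme in NT2/D1 and TCam-2, with SE as bars; open points did not pass and a missing point was not tested. In NT2/D1 PTGES was at 1.49 and HPGD at 1.23, in TCam-2 they were at -4.01 and -1.56, while PTGES3 and PTGR1 had nearly the same change in both lines.

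By position on GRCh38 (GENCODE release 44), 4 of the 9 genes lie on chromosome 9: PTGR1 (chr9:111549722-111599893, minus strand), PTGS1 (chr9:122370530-122395703, plus strand), PTGES2 (chr9:128120693-128128462, minus strand) and PTGES (chr9:129738331-129753042, minus strand). Their directions in NT2/D1 were mixed, PTGR1 and PTGES rising and PTGS1 and PTGES2 falling. HPGD is at chr4:174490175-174523154, PTGIS at chr20:49503874-49568137, PTGS2 at chr1:186671791-186680922 and PTGES3 at chr12:56663341-56688408, all on the minus strand, and PTGR2 at chr14:73851831-73885726 on the plus strand.

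Since the strand setting is not given, reads of overlapping genes on opposite strands cannot be told apart, and overlaps on the same strand are uncertain too. ZNF483, on the strand opposite to PTGR1, shares 2.07% of its exon bases and was at 9.14 CPM with the mimic and 1.32 CPM without in TCam-2, so it rose alongside PTGR1 there, while it was at 10.6 and 19.4 CPM in NT2/D1, where PTGR1 rose. An unnamed antisense RNA, ENSG00000273711, shares 20.8% of the PTGR2 exon bases and held 2 to 21 counts a library, and its means of 0.266 CPM with the mimic and 0.706 CPM without in NT2/D1 differ the same way as those of PTGR2. On the same strand as PTGR2 the protein-coding gene ENSG00000258653 shares 14.2% of the PTGR2 exon bases and held 0 to 2 counts a library, and how reads over these bases were assigned is not known under either strand setting. The antisense RNA PACERR shares 3.99% of the PTGS2 exon bases and held at most 3 counts. The PTGES3 pseudogenes, near copies of its transcript, held at most 7 counts a library.

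Of 11 genes for the receptors that prostaglandins act on, 6 could be tested in NT2/D1, where 4 rose and none fell, against 30.2% of all tested genes rising. Of the 4 risers PTGER4, PTGFR and PTGIR met the filter on low counts only through the mimic libraries, where they are high, so the direction of this count is partly set by the filter. PTGER4, a receptor for prostaglandin E2, had 2.62 ± 0.649 CPM with MIR9-2-5p and 0.194 ± 0.148 CPM without (SD, n = 4; log2 fold change 3.65, SE 0.42, edgeR adjusted p = 1.27e-06). PTGFR, the receptor for prostaglandin F2α, was at 3.49 ± 0.867 and 0.643 ± 0.332 CPM (log2 fold change 2.46, SE 0.31, edgeR adjusted p = 3.3e-06).

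The other risers, named after their values were seen, were PTGIR, the prostacyclin receptor, at 2.87 (SE 0.38, edgeR adjusted p = 5.74e-06), and the nuclear receptor PPARG at 1.79 (SE 0.27, edgeR adjusted p = 2.17e-05) on the log2 scale. Of the other prostaglandin E2 receptors, also named after their values were seen, PTGER3 did not pass (log2 fold change 0.49, edgeR adjusted p = 0.24), and PTGER1 and PTGER2 could not be tested. PTGER2 was at 0.199 CPM with MIR9-2-5p and 0.549 CPM without, and PTGER1 at 0.25 and 0.351 CPM. All of these receptors but PPARG had few counts, 73 or fewer in any library for PTGIR.

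Of 6 tested vascular markers 3 rose in NT2/D1 and none fell, where 30.2% of all tested genes rose and 29.1% fell. The risers were RGS5, from 74.3 to 428 CPM, TAGLN, from 43.5 to 170 CPM, and ACTA2, from 2.1 to 16.5 CPM. The 7 listed genes summed to 118 to 134 CPM without and 583 to 652 CPM with the mimic. The endothelial markers PECAM1, VWF and CDH5 were at 0.301, 2.91 and 0.885 CPM without the mimic, and CDH5, VWF and the smooth muscle gene MYH11 did not pass. Of 7 tested fibroblast markers 5 rose and 2 fell, where 59.3% of all tested genes changed. DCN was at 0 in every NT2/D1 library. The part of these cell type genes in the receptor values was not tested.

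In TCam-2 3 receptor genes could be tested, 1 higher and 2 lower, where 66.3% of all tested genes changed. The riser, named after its values were seen, was PPARG, which rose in NT2/D1 too. In TCam-2 it went from 13.6 ± 1.43 to 21.4 ± 0.405 CPM (log2 fold change 0.51, SE 0.10, edgeR adjusted p = 0.000138). TBXA2R, the thromboxane receptor, had 42, 44, 24 and 32 counts without the mimic and 16, 2, 5 and 5 with it. It fell from 1.93 ± 0.465 to 0.399 ± 0.301 CPM (SD, n = 4; log2 fold change -2.34, SE 0.39, edgeR adjusted p = 4.69e-05), and it met the filter on low counts only through the scrambled libraries. The nuclear receptor PPARD, which some prostacyclin-like lipids activate, fell by 0.71 on the log2 scale (log2 fold change -0.71, SE 0.09, edgeR adjusted p = 2.91e-06). PTGIR was at 0 in all 8 TCam-2 libraries, which allows at most 0.14 to 0.212 CPM a library (3 counts).

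**Figure D4:**
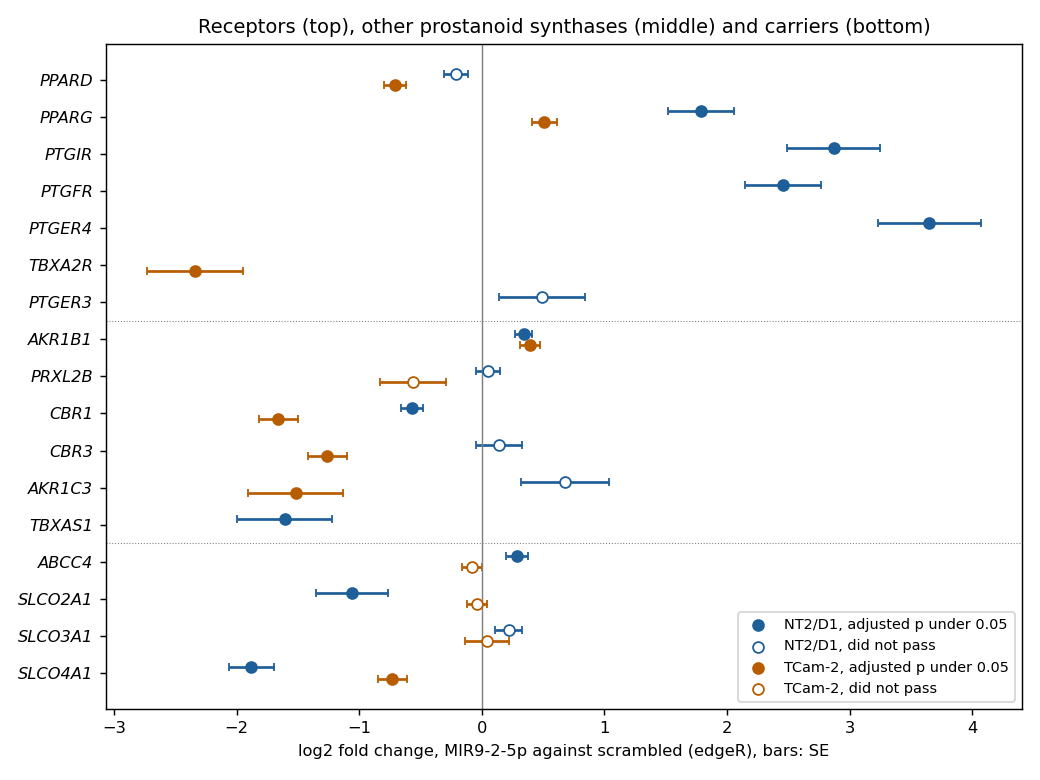
Log2 fold change with MIR9-2-5p against the scrambled mimic, with SE as bars, for the tested prostanoid receptors (top), other prostanoid synthases (middle) and prostaglandin carriers (bottom) in NT2/D1 and TCam-2; open points did not pass. PTGER4, PTGIR and PTGFR were at 3.65, 2.87 and 2.46 in NT2/D1, and TBXA2R at -2.34 in TCam-2.

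The other terminal synthases make prostaglandins of the D and F series and thromboxane, and the D synthases PTGDS and HPGDS were too low to be tested. In NT2/D1 1 of 6 tested rose and 2 fell, and in TCam-2 1 of 5 rose and 3 fell. These shares and those of the lists that follow are to be read against the 59.3% of all tested genes that changed in NT2/D1 and the 66.3% in TCam-2. AKR1B1, an aldose reductase with prostaglandin F synthase activity, rose in both lines, by 0.34 on the log2 scale in NT2/D1 (SE 0.07) and 0.39 in TCam-2 (SE 0.08, edgeR adjusted p = 0.000309 and 0.000369). CBR1, a carbonyl reductase that can turn prostaglandin E2 into F2α, fell in both, with -0.57 in NT2/D1 (SE 0.09) and -1.66 in TCam-2 (SE 0.16, edgeR adjusted p = 3.31e-05 and 4.83e-08).

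Its relative CBR3 was lower in TCam-2 at 2.94 ± 0.484 CPM against 6.5 ± 0.844 CPM (SD, n = 4; log2 fold change -1.26, SE 0.16, edgeR adjusted p = 1.89e-06). In NT2/D1 CBR3 did not pass (log2 fold change 0.14, SE 0.19). Of the other prostaglandin reductases none of 3 tested rose and 1 fell in NT2/D1, CBR4 at -0.61 (SE 0.11, edgeR adjusted p = 0.000113). In TCam-2 1 rose and none fell, AKR1C1 at 1.04 (SE 0.24, edgeR adjusted p = 0.000889), whose near-identical copies make its counts uncertain. PTGR3, a relative of the PTGR enzymes, passed in neither line, at 0.13 and 0 on the log2 scale.

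Upstream, of the phospholipases and other genes of arachidonate release 6 of 18 rose and 8 fell in NT2/D1, and 4 of 14 rose and 6 fell in TCam-2, where 59.3% and 66.3% of all tested genes changed. MGLL, the lipase that frees arachidonic acid from an endocannabinoid, rose from 1.98 ± 0.337 to 22.5 ± 1.69 CPM in NT2/D1 (SD, n = 4; log2 fold change 3.49, SE 0.14, edgeR adjusted p = 2.02e-12). In TCam-2 MGLL was abundant in both groups, at 168 ± 3.15 CPM without and 152 ± 6.14 CPM with the mimic, and fell slightly (log2 fold change -0.28, SE 0.06, edgeR adjusted p = 0.000506).

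PLAAT3, a phospholipase, had a log2 fold change of 0.98 in NT2/D1 against -0.22 in TCam-2, while the lysosomal phospholipase PLA2G15 had 0.87 and -0.67, all passing the test. For both the difference of response passed too, at 1.21 and 1.56 (edgeR adjusted p = 1.65e-09 and 4.07e-09). LPCAT3, which puts arachidonic acid back into phospholipids, rose in TCam-2 (log2 fold change 0.72, SE 0.08, edgeR adjusted p = 2.84e-07) and did not pass in NT2/D1 (-0.16, SE 0.08).

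Among carriers of prostaglandins 1 of 4 rose and 2 fell in NT2/D1, and none of 4 rose and 1 fell in TCam-2, a smaller share than the 66.3% of all tested genes. SLCO2A1, the uptake carrier that delivers prostaglandins to HPGD, was at 30.7 ± 2.21 CPM in scrambled TCam-2 and 2.29 ± 0.581 CPM in scrambled NT2/D1 (SD, n = 4), high in the same line as HPGD. With the mimic it did not pass in TCam-2 (log2 fold change -0.04, SE 0.08) and fell in NT2/D1 (-1.06, SE 0.29, edgeR adjusted p = 0.00476). The efflux pump ABCC4 rose in NT2/D1 by 0.29 (SE 0.09, edgeR adjusted p = 0.00795) on the log2 scale. SLCO4A1 fell in both lines, at -1.88 and -0.73.

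In the neighbouring arachidonic acid routes, 4 of 12 lipoxygenase and leukotriene genes rose and 5 fell in NT2/D1, and 2 of 10 rose and 7 fell in TCam-2 (59.3% and 66.3% of all tested genes changed). ALOX5, which starts leukotriene synthesis, rose in both lines, to 10 ± 0.838 from 2.5 ± 0.296 CPM in TCam-2 (SD, n = 4; log2 fold change 1.87, SE 0.14, edgeR adjusted p = 2.76e-09). In NT2/D1 it had 26, 29, 24 and 18 counts with the mimic and 6, 6, 1 and 7 without. It was there at 1.2 ± 0.312 against 0.287 ± 0.161 CPM (log2 fold change 2.09, SE 0.45, edgeR adjusted p = 0.000705) and met the filter on low counts only through the mimic libraries.

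GGT1, a glutamyl transferase of the leukotriene route that the same bar plot of the study shows for TCam-2, fell in both, at -1.07 in NT2/D1 and -2.33 in TCam-2. MGST3, a membrane glutathione transferase, had 1.08 and -0.57, with a tested difference of 1.67 (edgeR adjusted p = 1.94e-12). Of the epoxygenases and hydrolases 1 of 7 rose and 5 fell in NT2/D1, and 1 of 6 rose and 2 fell in TCam-2, the latter below the 66.3% of all tested genes. CYP2S1 fell in both lines, at -1.55 and -0.38, and so did CYP4V2, at -1.48 and -0.75.

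Among peroxide enzymes and HSP90 partners 3 of 12 rose and 7 fell in NT2/D1, and 2 of 12 rose and 8 fell in TCam-2, beside 59.3% and 66.3% of all tested genes that changed. The chaperones that PTGES3 works with, HSP90AB1 and HSP90AA1, fell in both lines, at -0.30 and -0.24 in NT2/D1 and -0.89 and -0.58 in TCam-2. PTGES3 itself was at -0.28 and -0.29, and differences between these genes were not tested. The HSP90 co-chaperone FKBP4 had -0.49 in NT2/D1 and 0.15 in TCam-2, both passing. GPX3, a secreted glutathione peroxidase, had 0.63 and -0.18.

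For the 3 enzymes with the smallest adjusted p in the test of the difference between lines, the protein-coding genes with the most similar profile were sought by the root mean square difference of centred log2 CPM over 16 libraries, among 13705 genes. For PTGES they were PLCB2, CRIP2 and STARD8, at differences of 0.63, 0.64 and 0.69. For HPGD they were OTOF, WNT6 and TMPRSS11E, at 0.38, 0.60 and 0.60, with OTOF at 0.317 CPM or less in NT2/D1. For PTGR2 they were POU2F1, HK2 and PUS7, at 0.20, 0.21 and 0.23. The measure is not scaled to a gene's own range, so its values cannot be compared between enzymes. In NT2/D1, where PTGES rose, PLCB2 was at 9.25 CPM with and 8.83 CPM without the mimic. CRIP2 was there at 44.2 and 6.47 CPM and STARD8 at 24.3 and 14.6 CPM. POU2F1 was at 78.1 CPM with and 134 CPM without the mimic in NT2/D1 and at 98.3 and 62.8 CPM in TCam-2.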

How the data were processed

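RNA of 16 libraries was analysed from the counts the authors deposited, whole numbers per gene with no normalization, which STAR alignments to GRCh38 and featureCounts produced. The submitters' notes also name Trim Galore, cutadapt and FastQC, while the study's methods name fastp and DESeq2 and its figure legends edgeR. Which annotation release and which strand setting were used is not given in the sources used here. Of 58735 gene IDs 58207 matched GENCODE release 44, the source of symbols, positions and 3′ UTRs here, which may differ from the one used for counting. Coordinates are 1-based.

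The counts were tested with edgeR 4.0.16 in R 4.3.3: TMM factors, filterByExpr (counts of at least 10, 15 in total), robust quasi-likelihood F tests and Benjamini-Hochberg adjustment over all tested genes, called at an adjusted p under 0.05. Each line was fitted alone, the scrambled groups together, and the difference of response was an interaction over all libraries, coded as the NT2/D1 response minus the TCam-2 response. CPM values are counts per 1000000 of each library's total, and overlap of groups was judged on them. They carry no TMM factor, so a change read from CPM can differ from the log2 fold change. In TCam-2, for example, mean PTGES2 was 56.5 CPM without and 61.4 CPM with the mimic, at a log2 fold change of -0.01. Levels per length used the union of annotated exons or the longest transcript. Library totals ran from 14167738 to 22427162, so 1 count is worth less than 0.1 CPM in every library. Limits for zeros (3 counts) cover counting error only. No replicates differed by less than their sampling noise. p-values measure the spread between the biological replicates within each group, with 1 line for each tumour type.

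All 9 enzymes are named in every comparison. Of each of 8 pathway lists the 2 genes with the smallest adjusted p in each line are named, and any other gene says so. The members and lists were chosen with earlier results of these data known. Fits were tested on simulated data with changes planted only in genes with higher counts. The recovery of changes in genes with few counts was therefore not tested. Alternatives were each library left out, a replicate block, 1 fit of all libraries, DESeq2 1.42.0, upper-quartile or RLE factors, testing against a fold of 1.5, genes with a mean count of 100 or more, unfiltered genes, only protein-coding genes, and the longest transcript. A further sequence window is not reported here.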

Additional observations from a re-analysis of the deposited data

Results flagged for a closer look

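For 4 of the 9 enzymes the lines responded to MIR9-2-5p differently, as tested on the difference itself, where 53.2% of all tested genes passed, so the count says nothing particular of these enzymes. The difference, as the NT2/D1 response minus the TCam-2 response on the log2 scale, was 5.52 for PTGES, 2.80 for HPGD, 1.79 for PTGIS and -1.38 for PTGR2 (edgeR adjusted p = 2.65e-14, 1.89e-09, 0.000713 and 0.000118). PTGES and HPGD rose in NT2/D1 and fell in TCam-2, PTGIS fell in both, and PTGR2 fell in NT2/D1 and was higher in TCam-2. The lines also differ in medium and in the control level of these genes. Of 36 groups of 4 libraries, 9 enzymes in 4 groups, 0 had a library past Dixon's critical value for 4 samples.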

How the results depend on the processing

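No direction of a called enzyme reversed under the alternatives run, and 584 of 610 values of single enzymes kept their side of the threshold. Members called fell to 4 of 8 in NT2/D1 and 3 of 6 in TCam-2 with a mean count of at least 100, which removes the low genes, and to 2 in NT2/D1, 3 in TCam-2 and 5 of 8 between the scrambled groups with a fold minimum of 1.5. With that minimum the genes called overall were 3907 in NT2/D1, 4178 in TCam-2, 5239 for the difference and 9206 between the scrambled groups. With 1 library left out, members called were 8 in NT2/D1, 5 to 6 in TCam-2, 4 to 5 for the difference and 7 to 9 between the scrambled groups. PTGES2 passed for the difference with upper-quartile factors (-0.47, adjusted p = 0.0298), a mean count of at least 100 (0.0449) and protein-coding genes alone (0.0478); the cause was not tested. Upper-quartile factors moved the median log2 difference of all genes from 0.001 to -0.125, against which that value is read. The PTGR2 rise in TCam-2 was also lost with no filter (adjusted p = 0.0633).

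The replicate numbers gave correlations of -0.26 to 0.07 between same-numbered libraries of a line, so no pairing was seen in the counts. Whether same-numbered samples were handled together is not given, and such low correlations cannot exclude it. A replicate block gave 9555 calls in NT2/D1, 10819 in TCam-2, 9827 for the difference and 13658 between the scrambled groups, with 8, 6, 4 and 8 members called. Of 36 levels per length 20 moved by more than 1 SD with the longest transcript. Depth limits PTGS1 and PTGS2 in TCam-2, where each library held 0 to 4 counts and single counts decide the values. Counts were also few for PTGIS in TCam-2 (2 to 36) and HPGD in NT2/D1 (4 to 33). So were those of PTGES in TCam-2 with the mimic (8 to 16) and PTGS2 in NT2/D1 (4 to 20).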
